A study of Mus musculus with 8 samples.

Results

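Interferon-stimulated genes are the genes whose transcription rises when a cell senses interferon, and they carry most of the antiviral state. The 34 genes described here were taken from a list that spans the transcription factors of the response, RNA and DNA sensors, antiviral effectors, the ISG15 system, the guanylate-binding and immunity-related GTPases, and class I antigen presentation. Of these, 32 had a probe set whose annotation names that gene alone, out of 18193 genes measured in this way, and each gene was read from its brightest such probe set. Isg15 was read only by a probe set that names a second gene too, so it is given apart, and Ifi44 was not analysed here.

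The cells were mouse embryonic fibroblasts (MEFs), primary cells grown from dissociated embryos, of the C57BL/6 strain. They were taken from E13.5 embryos and grown in serum-containing medium with antibiotics. At passage 3 equal densities were seeded, and the cells were harvested after 48 hours. Wild-type (WT) cells were compared with Cebpg-/- cells, which lack both copies of the gene for C/EBPγ, a bZIP transcription factor that dimerises with other C/EBP and ATF proteins, and each genotype had 4 arrays. No interferon, virus or other agent was given to either genotype per the labels. RNA was hybridised as biotin-labelled cRNA made from 1 µg of total RNA, on Affymetrix arrays of 45101 probe sets. The labels call the arrays biological replicates without saying whether they came from separate embryos, so the p-values measure the spread between these cultures.

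Array medians lay between 2.70 and 2.76 on the log2 scale. The check of the genotype rested on 3 Cebpg probe sets, of which 1 fell, from 6.32 ± 0.07 in WT to 5.53 ± 0.12 in Cebpg-/- (mean ± SD, n = 4, limma adjusted p over all probe sets = 0.000593), while the brightest went from 6.78 ± 0.16 to 6.60 ± 0.11 (limma adjusted p = 0.275) and the faintest from 2.80 ± 0.14 to 3.05 ± 0.10 (limma adjusted p = 0.0942). Where the probe sets lie relative to the deleted part is not given in the sources used here. Fibroblast collagens and receptors were bright on all 8 arrays, and the mean of 11 fibroblast markers lay between 9.47 and 9.97. The 24 measured leukocyte and macrophage markers had a list mean above the array median on all 8 arrays, and their values are given beside the results they move with.

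Type I interferons bind the receptor formed by IFNAR1 and IFNAR2, and signalling through it activates the complex ISGF3, which holds STAT2 and IRF9 and binds the interferon-stimulated response element (ISRE) in the promoters of its targets. Interferon-γ acts on the gamma-activated site (GAS) and drives the GTPase and antigen presentation genes most strongly. Fibroblasts make and answer interferon-β, and a low level of signalling keeps some of these genes on without infection. ISGF3 components are themselves targets, so the response feeds back on its own factors.

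The promoters were also searched for these elements. The genes were chosen as interferon targets, so a high share of ISRE cores is tied to that choice and is no result about genotype. RefSeq promoter sequences of GRCm38.p6 were held for 25 of the 34 genes, and 250 bases before each start were searched on both strands for the ISRE core GAAANNGAAA and for the GAS core TTCNNNGAA. The ISRE core lay upstream of 12 of the 25 genes (48.0%), against 936 of 27025 genes in the whole table (3.46%) and 2.98% of the 32851 single promoters. The GAS core lay upstream of 5 of 25 (20%), against 8.13% of all genes and 7.02% of all promoters. The windows below carry ISRE cores of some of these genes. Of the genes shown, only Ifit3 passed the test of genotype given further below. A link between the cores and genotype was not tested. They are written 5′ to 3′ along the gene, in lower case with every base of an ISRE core in capitals, so the core reads GAAANNGAAA or, on the opposite strand, TTTCNNTTTC.
Ifit3, chr19:34583358-34583431, + strand: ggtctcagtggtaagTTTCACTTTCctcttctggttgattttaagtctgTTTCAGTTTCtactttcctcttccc
Ifit1, chr19:34640770-34640828, + strand: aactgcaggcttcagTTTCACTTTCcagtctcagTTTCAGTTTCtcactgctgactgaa
Isg15, chr4:156200860-156200911, - strand: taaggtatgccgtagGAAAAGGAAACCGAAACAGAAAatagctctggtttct
Bst2, chr8:71537572-71537617, - strand: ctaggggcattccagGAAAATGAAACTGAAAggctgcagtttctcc
Oas1a, chr5:120907526-120907560, - strand: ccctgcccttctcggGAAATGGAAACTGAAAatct
Igtp, chr11:58199507-58199546, + strand: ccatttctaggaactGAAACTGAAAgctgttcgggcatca
Irgm1, chr11:48871421-48871465, - strand: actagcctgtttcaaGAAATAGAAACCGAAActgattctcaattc
Gbp2, chr3:142620589-142620628, + strand: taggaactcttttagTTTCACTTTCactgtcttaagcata
B2m, chr2:122147533-122147572, + strand: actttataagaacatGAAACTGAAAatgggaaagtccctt

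Ifit3 and Ifit1 each carry 2 separate ISRE cores on the opposite strand, 156 to 147 and 122 to 113 bases before the start in Ifit3, and 104 to 95 and 85 to 76 in Ifit1. Overlapping cores make a longer run in Isg15 (3 cores, 78 to 57 bases before the start), Bst2 (2 cores, 130 to 115), Oas1a (2 cores, 20 to 5), Irgm1 (2 cores, 30 to 15) and Gbp3 (2 cores, 45 to 30). Stat2, Rsad2 and Gbp3 are the genes with an ISRE core whose windows are not shown. GAS cores lay upstream of Irf1, Ifit2, Oas1a, Bst2 and Igtp, and that of Bst2, 136 to 128 bases before the start, overlaps its first ISRE core. No ISRE core was in these 250 bases of Ifit2 or Tap1, which says only that these letters are not in that window.

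**Figure D1:**
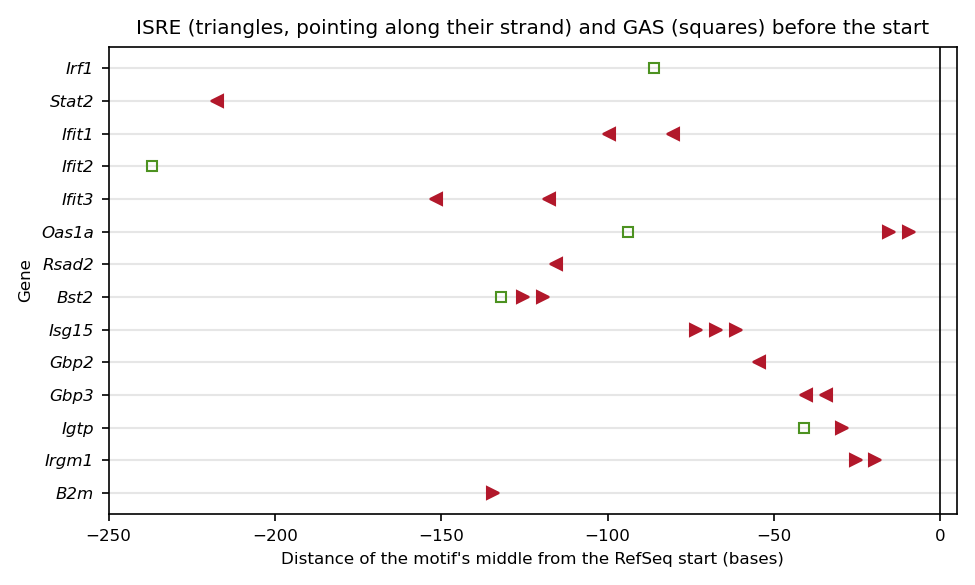
ISRE and GAS cores in the 250 bases before the RefSeq start of the 14 genes that have either, out of 25 with a promoter sequence. The x axis is the distance in bases of the middle of each core from the start; red triangles are ISRE cores pointing along their strand, green squares are GAS cores. The ISRE core farthest from its start is that of Stat2, at 222 to 213 bases.

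Without added interferon, 3 of the 32 genes were higher in Cebpg-/- cells and 0 were lower. Ifit2 and Ifit3, of the IFIT family, and Tap1, a subunit of the peptide pump of antigen presentation, rose 1.502-fold, 1.55-fold and 1.52-fold. The other 29 did not pass the test (limma, Benjamini-Hochberg over 18193 genes, threshold 0.05). The 3 genes make 9.38% of those measured, beside 8.62% of all genes called higher, and the 0 lower stand beside 3.99% of all genes, so the share called was near the background. The share of all genes called higher depended on single arrays: it was 4.29% without WT array 1, and without Cebpg-/- arrays 1, 3 or 4 or WT array 3 it was between 4.45% and 5.78%. At an unadjusted p under 0.05, 7 genes were higher (Ifit2, Tap1, Ifit3, Gbp2, Oas2, Igtp and Ifit1), beside 17.5% of all genes, and 0 were lower, beside 10.9%.

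Over the 32 genes, the called ones included, the direction leaned the same way, though most single differences lay within the spread. The fitted difference, Cebpg-/- minus WT, was positive in 27 of 32 genes (84.4%), against 49.7% of all genes, and its median was 0.30 on the log2 scale, against -0.00092 over all genes. The 5 genes with a negative difference were Irf1, Mx1, Mx2, Oasl1 and Irgm1, none of which passed the test. All 4 Cebpg-/- values lay above all 4 WT values in 4 genes (Ifit2, Ifit3, Oas2 and Tap1), beside 12.8% of all genes, and in no gene did all 4 lie below, beside 6.74%. No test was made over the list. Its genes moved together over the arrays, as described below, and were chosen with earlier results known. The count of signs is therefore not a count of independent results.

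**Figure D2:**
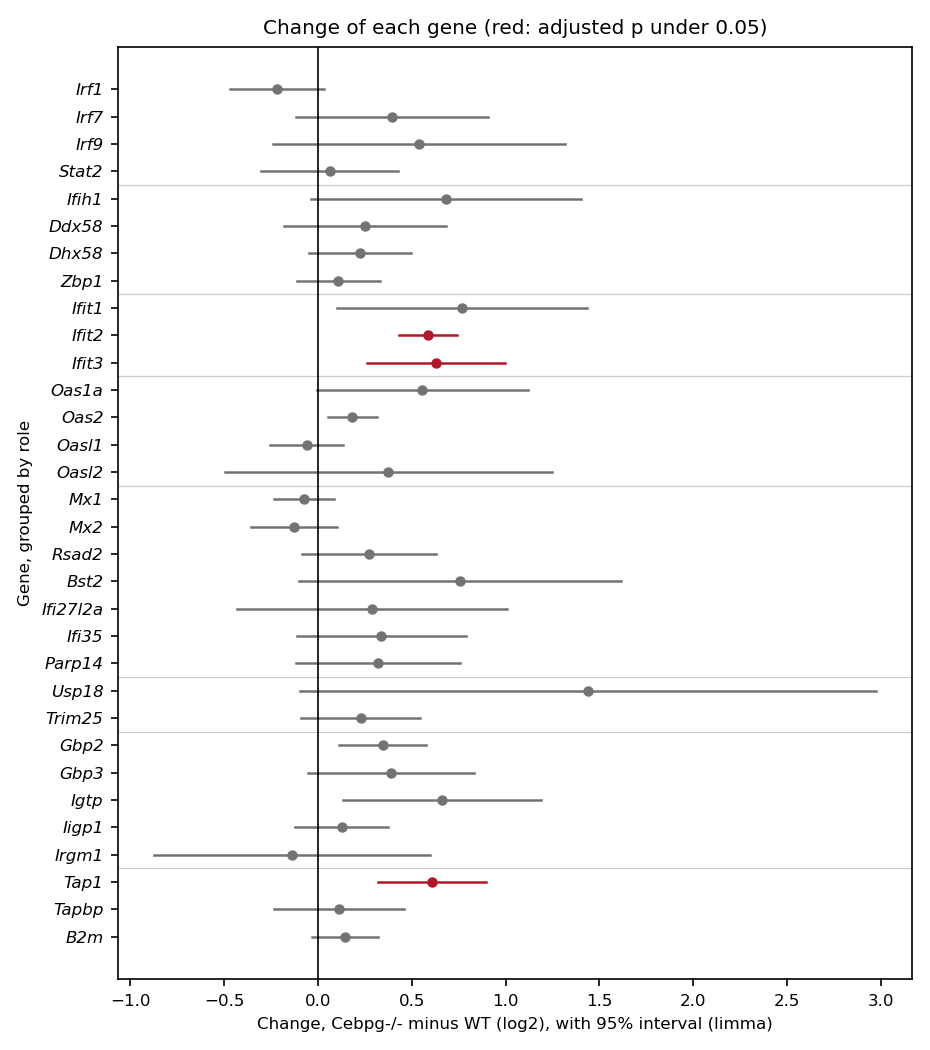
Difference of each of the 32 genes, Cebpg-/- minus WT, on the log2 scale (x axis), with its 95% interval from limma, grouped by role (y axis). Red marks Ifit2, Ifit3 and Tap1, the genes that passed the test; the interval of Usp18, whose difference is the largest of the 32, reaches from -0.10 to 2.97.

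The genes differed between cultures of the same genotype far more than most genes did. The SD over the 4 WT arrays had a median of 0.323 over the 32 genes, against 0.106 over all genes, and that over the 4 Cebpg-/- arrays was 0.230 against 0.0937. The range of the WT values was larger than the difference between genotypes in 29 of 32 genes (90.6%), against 78.6% of all genes. The WT SD was larger than the Cebpg-/- SD in 25 of 32.

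The spread had a shape that most of these genes shared. The mean of the 32 genes was 4.46, 4.47, 5.08 and 5.05 on WT arrays 1 to 4, and 5.28, 4.76, 5.24 and 5.11 on Cebpg-/- arrays 1 to 4. WT arrays 1 and 2 were thus the low ones, Cebpg-/- array 2 came next, and WT arrays 3 and 4 lay beside the remaining Cebpg-/- arrays. Group means were 4.76 ± 0.35 and 5.10 ± 0.24, and the groups overlapped. Cebpg-/- array 2 was the lowest of its genotype in 27 of 32 genes (84.4%), against 27.0% of all genes. Among WT arrays, array 1 was the lowest in 16 of the 32 genes, array 2 in 11, array 4 in 5 and array 3 in 0, against 22.4%, 22.1%, 37.3% and 18.1% of all genes. WT array 4 was the highest of its genotype in 15 genes and WT array 3 in 12.

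**Figure D3:**
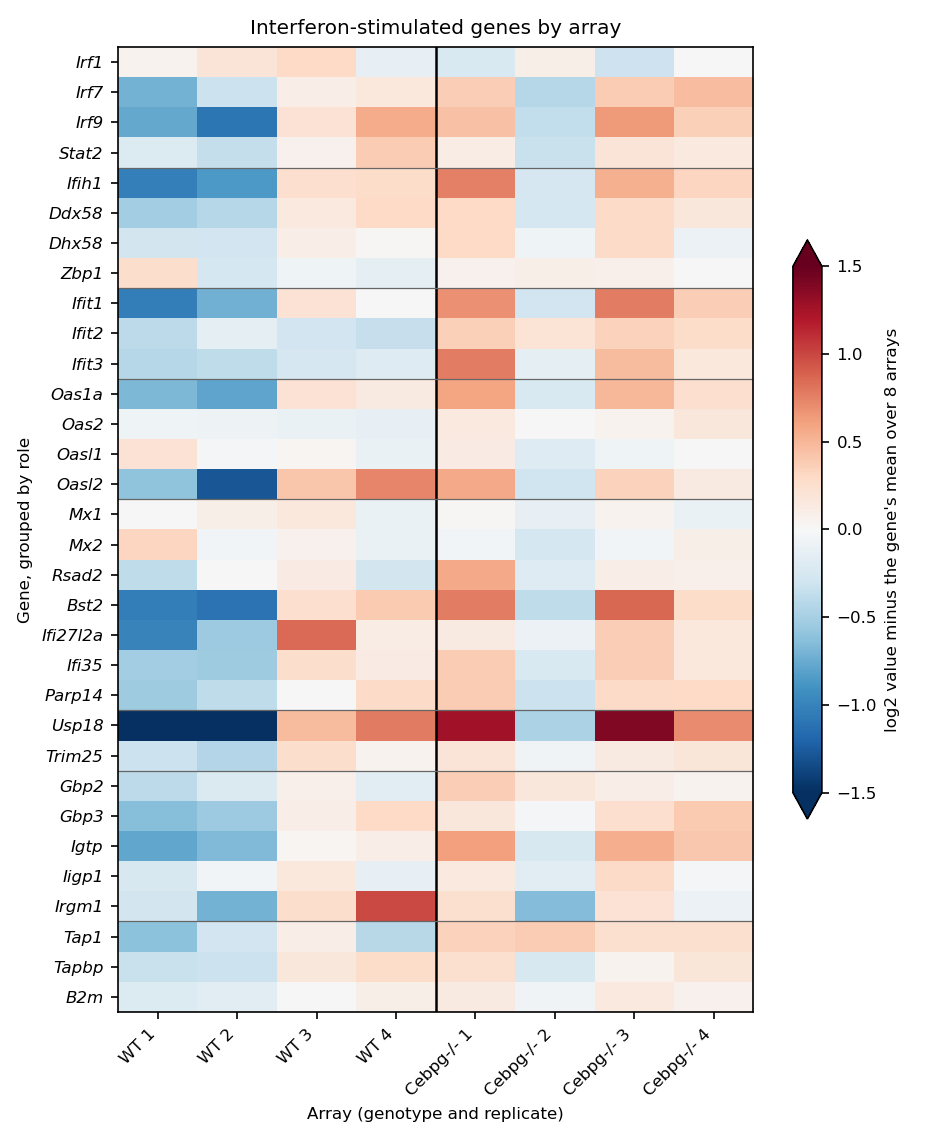
Each of the 32 genes (rows, grouped by role) on each array (columns), as its log2 value minus its mean over the 8 arrays; the scale ends at -1.5 and 1.5, and values beyond are drawn at its ends. Blue fills WT arrays 1 and 2 and, more weakly, Cebpg-/- array 2 in most rows, and Usp18, Oasl2 and Bst2 swing widely.

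The leukocyte and macrophage markers moved over the arrays in a partly similar order. The mean of those 24 genes was 3.43, 5.03, 4.98 and 5.21 on WT arrays 1 to 4 and 7.20, 4.56, 6.49 and 6.05 on Cebpg-/- arrays 1 to 4, with group means of 4.66 ± 0.83 and 6.08 ± 1.12. Csf1r, the receptor for macrophage colony-stimulating factor, ran from 5.38 to 7.39 in WT and from 6.51 to 9.26 in Cebpg-/-. All 24 had a positive difference, with a median of 1.42, and 1 of them, Cd14, passed the test (1.37, limma adjusted p = 0.0316), beside 8.62% of all genes; 18 were higher at an unadjusted p under 0.05, beside 17.5%. The count called was 23 without Cebpg-/- array 2 (95.8%, beside 9.29% of all genes) and 7 with array weights (29.2%, beside 10.6%). It was 0 with the intensity trend, with the replicate block, or without WT array 1, WT array 3 or any 1 of Cebpg-/- arrays 1, 3 and 4. All 24 were lowest on WT array 1 among WT arrays and lowest on array 2 among Cebpg-/- arrays. WT array 2, low in the interferon-stimulated genes at 4.47, was not low in these markers at 5.03. In bulk RNA, fewer cells of a type and less RNA per cell cannot be told apart.

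With the mean of those markers as a covariate in the fit, 1 of the 32 genes passed, Ifit2, and the median difference was 0.0048, with 16 of 32 positive. The same fit called 262 genes higher and 128 lower in all. The covariate itself differed between genotypes (4.66 ± 0.83 in WT against 6.08 ± 1.12 in Cebpg-/-), so this fit also takes out part of any genotype difference. For calls lost with it, the markers and the genotype cannot be told apart. Leaving out the marker extremes, WT array 1 (lowest in WT) and Cebpg-/- array 1 (highest in Cebpg-/-), left Ifit2 alone too, with 25 of 32 positive. In the mean of the 32 genes these arrays were likewise the lowest in WT and the highest in Cebpg-/-. Leaving them out therefore narrows the difference by the choice of arrays, and fewer arrays remain. Lymphoid and plasmacytoid dendritic cell markers, of which 8 were measured, had a median difference of -0.07 and list means between 2.14 and 2.31. Among them 1 fell (12.5%, beside 3.99% of all genes), Ccr9 (-0.29, limma adjusted p = 0.0308), which read under the array median. Of 5 epithelial markers 1 rose, Krt19 (0.53, limma adjusted p = 0.0211), and 1 fell, Epcam (-0.34, limma adjusted p = 0.0200). Each was 20% of its list, beside 8.62% and 3.99% of all genes. None of 7 endothelial markers passed. These calls were lost with the leukocyte covariate and without WT array 1. Of the fibroblast markers, 4 of 11 fell (36.4%, beside 3.99% of all genes), which were Col1a1, Col1a2, Col3a1 and Pdgfrb. Col1a1 fell by 1.05 on the log2 scale (limma adjusted p = 0.00738), and 1 of the 4 calls was left with the leukocyte covariate. Lum, the gene of the proteoglycan lumican, went the other way, from 3.59 ± 0.73 to 4.66 ± 0.70 (1.07, unadjusted p = 0.0210, limma adjusted p = 0.104), Vim and S100a4 also had small positive differences, and Dcn differed by -0.01.

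**Figure D4:**
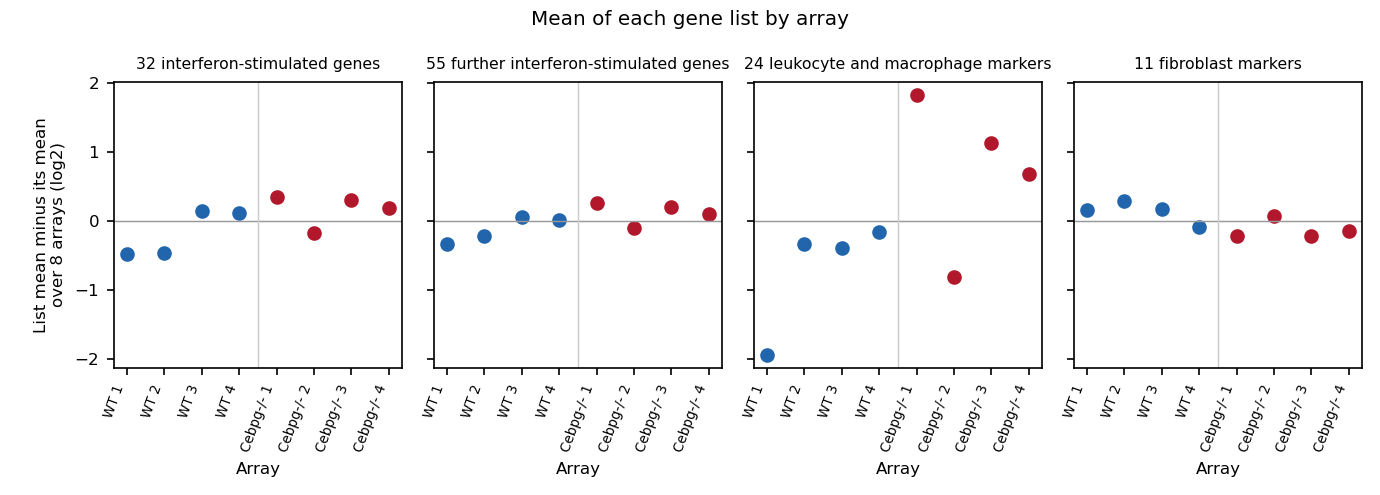
Mean of 4 gene lists on each array, as the list's mean on the log2 scale minus its own mean over the 8 arrays (y axis), for WT arrays 1 to 4 (blue) and Cebpg-/- arrays 1 to 4 (red). The interferon-stimulated genes are low on WT arrays 1 and 2 and on Cebpg-/- array 2, the leukocyte and macrophage markers on WT array 1 and on Cebpg-/- array 2, and the fibroblast markers on Cebpg-/- arrays 1 and 3.

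Among the transcription factors of the response, none of 4 passed the test and the median difference was 0.23. Irf9, the DNA-binding subunit of ISGF3, read 4.95, 4.64, 5.94 and 6.27 in WT and 6.16, 5.36, 6.36 and 6.07 in Cebpg-/- (difference 0.54, 95% interval -0.24 to 1.32, limma adjusted p = 0.345). WT arrays 3 and 4 lay among the Cebpg-/- values and the groups overlapped. Irf7, which amplifies the interferon-α response, read 3.08, 3.47, 3.89 and 3.94 against 4.16, 3.36, 4.17 and 4.25 (0.39, limma adjusted p = 0.293): 3 Cebpg-/- arrays lay above every WT array and array 2 below 3 of them. Stat2, the ISGF3 subunit that carries its activation domain, was 2.69 ± 0.32 against 2.75 ± 0.25 and stood near the array median of 2.73.

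Irf1, a factor induced mainly by interferon-γ, did not share the pattern. It read 6.48, 6.62, 6.72 and 6.30 in WT and 6.19, 6.51, 6.11 and 6.42 in Cebpg-/-, with a difference of -0.22 (95% interval -0.47 to 0.03, limma adjusted p = 0.232). Its lowest arrays were Cebpg-/- arrays 1 and 3, which were the highest arrays of the list mean.

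The sensors all had a positive difference and none of 4 passed, with a median of 0.24. Ifih1 encodes MDA5, which detects long double-stranded RNA, and it read 4.53, 4.69, 5.81 and 5.82 in WT and 6.31, 5.30, 6.09 and 5.88 in Cebpg-/- (0.68, 95% interval -0.04 to 1.40, limma adjusted p = 0.197). Here 3 Cebpg-/- arrays lay above every WT array, and array 2 lay between the low and the high WT arrays. Ddx58, the gene of RIG-I, a sensor of RNA ends, was 6.40 ± 0.41 against 6.65 ± 0.26, and its fainter probe sets differed by 0.30 and -0.10. Dhx58, the gene of their regulator LGP2, was 2.19 ± 0.20 against 2.42 ± 0.21. Zbp1, a sensor of Z-form nucleic acid that can start cell death, was 2.50 ± 0.22 against 2.61 ± 0.04. The means of Dhx58 and Zbp1 over all 8 arrays lay under the median value of all probe sets, as did those of Mx1, Stat2 and Iigp1.

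The IFIT genes gave 2 of the 3 calls. IFIT proteins recognise RNA that lacks the host's cap methylation, or form complexes with those that do. Ifit2 read 4.94, 5.19, 5.05 and 4.997 in WT and 5.69, 5.54, 5.69 and 5.61 in Cebpg-/-. The groups did not overlap, the lowest Cebpg-/- array lay well above the highest WT array, and WT array 2, low in most of the 32 genes, was the highest of its genotype. The means were 5.05 ± 0.11 and 5.63 ± 0.07 (difference 0.59, 95% interval 0.43 to 0.74, limma adjusted p = 0.000968). With the leukocyte markers as covariate the limma adjusted p stayed under the threshold, and over 17 alternative fits it ran from 0.000483 to 0.0192, with a difference between 0.49 and 0.63.

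Ifit3 read 3.15, 3.20, 3.33 and 3.40 in WT and 4.35, 3.44, 4.06 and 3.74 in Cebpg-/-. The WT values lay close together, and Cebpg-/- array 2 stood just above the highest of them while array 1 was far above. The means were 3.27 ± 0.11 and 3.899 ± 0.39 (0.63, 95% interval 0.26 to 1.00, limma adjusted p = 0.0341). This call held in 8 of 17 alternative fits: the limma adjusted p was 0.0972 without WT array 1, 0.0703 without WT array 2, 0.0706 without WT array 3, 0.0678, 0.0963 and 0.0549 without Cebpg-/- arrays 1, 3 and 4, 0.0510 with the replicate number as a block, 0.331 with the leukocyte covariate and 0.170 without both marker extremes. RefSeq places Ifit2 beside Ifit3, and 3 genes, among them the closely related Ifit3b, between Ifit3 and Ifit1; whether the Ifit3 probe set also reads Ifit3b was not tested.

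Ifit1 followed the shared pattern more closely. It read 2.63, 2.95, 3.89 and 3.67 in WT and 4.35, 3.38, 4.44 and 4.03 in Cebpg-/-, so that array 2 lay among the WT values. The difference of 0.77 was larger than that of Ifit2, but the WT SD was 0.59 (95% interval 0.10 to 1.43, unadjusted p = 0.0279, limma adjusted p = 0.123). Without Cebpg-/- array 2 it passed, with a limma adjusted p of 0.0443, and over all 17 alternatives that p ran to 0.837.

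**Figure D5:**
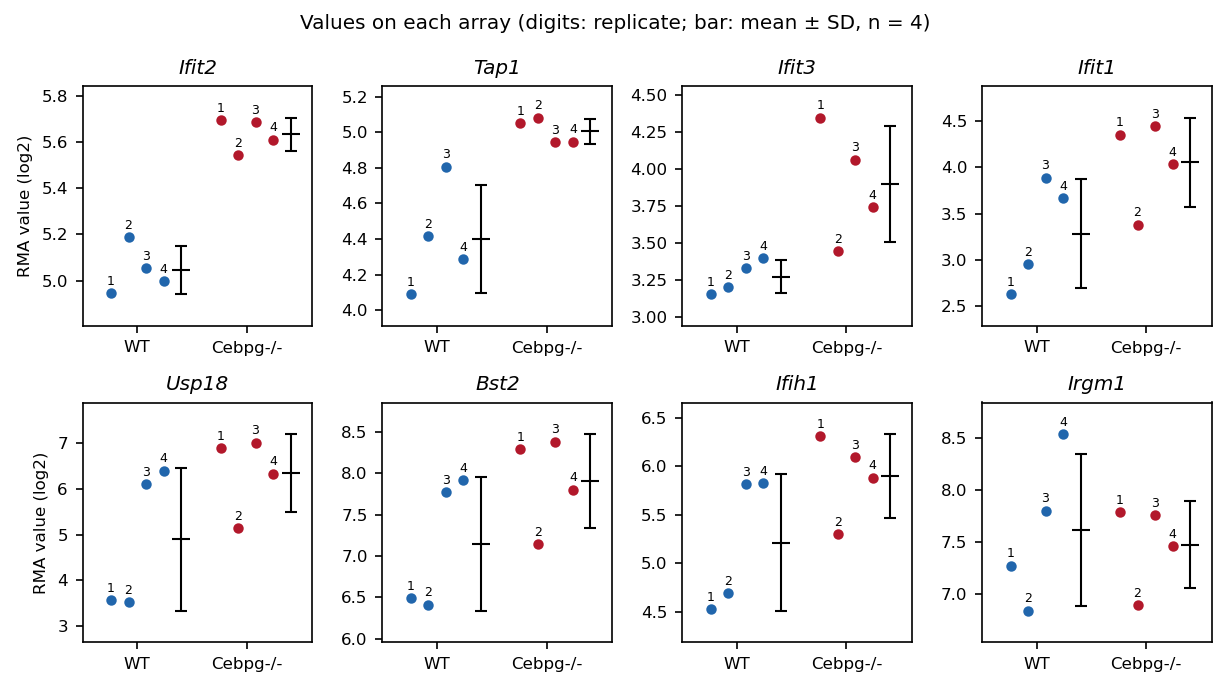
RMA values on the log2 scale (y axes, each with its own range that does not start at 0) of 8 genes in WT (blue) and Cebpg-/- (red); digits are replicate numbers, and bars are the mean ± SD of 4 arrays. Ifit2, Tap1 and Ifit3 have no overlap between genotypes, while in Usp18, Bst2 and Ifih1 WT arrays 3 and 4 lie among the Cebpg-/- values and WT arrays 1 and 2 lie below.

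The oligoadenylate synthetases make the short adenylate chains that switch on RNase L, and the OAS-like proteins are relatives that signal otherwise. None of 4 genes passed, and the median difference was 0.28. Oas2 read 2.97, 2.96, 2.94 and 2.92 in WT and 3.19, 3.04, 3.09 and 3.21 in Cebpg-/-, a small shift of 0.18 with no overlap (unadjusted p = 0.01, limma adjusted p = 0.0655), and its WT arrays were nearly equal. It passed with array medians subtracted, with dim probe sets left out and without Cebpg-/- array 2. Oas1a read 5.27, 5.16, 6.17 and 6.09 against 6.54, 5.73, 6.45 and 6.21 (0.56, 95% interval -0.01 to 1.12, limma adjusted p = 0.182), again low on WT arrays 1 and 2 and on Cebpg-/- array 2.

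Oasl2 and Oasl1 are neighbours in the genome and behaved differently. Oasl2 read 3.504, 2.82, 4.53 and 4.85 in WT and 4.68, 3.81, 4.46 and 4.25 in Cebpg-/-, with WT array 4 the highest of all 8 (0.37, limma adjusted p = 0.571). Oasl1, which restrains Irf7 translation, varied only between 2.96 and 3.28 in WT and between 2.87 and 3.18 in Cebpg-/- (-0.06, limma adjusted p = 0.697).

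Among the Mx GTPases and other effectors, none of 7 measured genes passed and the median difference was 0.29. Bst2, the gene of tetherin, which holds budding virus at the cell surface, read 6.49, 6.41, 7.78 and 7.91 in WT and 8.29, 7.14, 8.38 and 7.80 in Cebpg-/-. Its WT arrays fell into low and high pairs, with Cebpg-/- array 2 between them (0.76, 95% interval -0.10 to 1.62, limma adjusted p = 0.228). Rsad2, the gene of viperin, which makes a chain-terminating nucleotide, was 3.79 ± 0.23 against 4.07 ± 0.32 (0.27, limma adjusted p = 0.293). Ifi35 was 8.05 ± 0.42 against 8.39 ± 0.28 and Parp14, an ADP-ribosyltransferase, 3.35 ± 0.37 against 3.66 ± 0.33, and both repeated the order of the list mean, with WT arrays 1 and 2 lowest and Cebpg-/- array 2 lowest of its genotype.

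Ifi27l2a, a small membrane protein gene, had its highest value in WT: it read 5.27, 5.73, 7.12 and 6.38 in WT and 6.40, 6.19, 6.64 and 6.43 in Cebpg-/- (0.29, limma adjusted p = 0.598). The Mx genes, whose products trap viral nucleocapsids and of which C57BL/6 mice carry defective alleles, both had a negative difference. Mx1 was 1.95 ± 0.11 in WT and 1.88 ± 0.09 in Cebpg-/- (-0.07, limma adjusted p = 0.537). Mx2 was 3.03 ± 0.19 against 2.90 ± 0.14 (-0.13, limma adjusted p = 0.448), with WT array 1 the highest of all 8 at 3.29.

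In the ISG15 system neither of the 2 measured genes passed, though one of them had the widest WT range of the list. Usp18, the protease that removes ISG15 and also blocks the receptor IFNAR2, read 3.57, 3.53, 6.10 and 6.39 in WT and 6.88, 5.14, 7.005 and 6.33 in Cebpg-/-. Its difference of 1.44 (2.71-fold) was the largest of the 32 genes, but the WT values alone ranged over 2.86, and the groups overlapped (4.90 ± 1.56 against 6.34 ± 0.85, 95% interval -0.10 to 2.97, limma adjusted p = 0.202). The probe set that names Isg15, the ubiquitin-like modifier, together with Gm9706 had the same shape: 4.95, 5.12, 7.21 and 7.43 in WT and 7.46, 5.80, 7.56 and 6.81 in Cebpg-/- (0.73, limma adjusted p over all probe sets = 0.510). Trim25, a ligase for ISG15 and ubiquitin that activates RIG-I, moved less, from 7.04 ± 0.33 to 7.27 ± 0.12 (0.23, limma adjusted p = 0.327).

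Guanylate-binding proteins and immunity-related GTPases attack the vacuoles of intracellular parasites and bacteria. None of the 5 passed, and the median difference was 0.34. Gbp2 read 4.26, 4.45, 4.74 and 4.51 in WT and 5.03, 4.84, 4.76 and 4.71 in Cebpg-/-: only WT array 3 reached into the Cebpg-/- range (0.34, unadjusted p = 0.00808, limma adjusted p = 0.0581). It passed with array medians subtracted, with the mean of its probe sets and without WT array 3. Its near neighbour Gbp3, separated by Gbp2b, read 3.32, 3.41, 4.05 and 4.25 against 4.13, 3.92, 4.21 and 4.35 (0.39, limma adjusted p = 0.228).

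Igtp, also called IRGM3, read 4.52, 4.65, 5.33 and 5.40 in WT and 5.92, 5.06, 5.85 and 5.71 in Cebpg-/- (0.66, 95% interval 0.13 to 1.19, limma adjusted p = 0.0984). WT arrays 1 and 2 were the lowest of all 8, and Cebpg-/- array 2 lay below WT arrays 3 and 4. Irgm1, a regulator of the other GTPases, read 7.27, 6.83, 7.80 and 8.54 in WT and 7.79, 6.89, 7.76 and 7.46 in Cebpg-/-. Its highest array was WT array 4, and its difference was -0.14 (95% interval -0.87 to 0.60, limma adjusted p = 0.825), a sign that turned without WT array 4 (0.17), without Cebpg-/- array 2 (0.06) and with array weights (0.01). Iigp1 was near the array median, at 2.56 ± 0.17 against 2.69 ± 0.20.

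Of the antigen presentation genes, 1 of 3 passed. Tap1, which with TAP2 pumps peptides into the endoplasmic reticulum, read 4.09, 4.42, 4.81 and 4.29 in WT and 5.05, 5.08, 4.95 and 4.95 in Cebpg-/-. The groups did not overlap, and Cebpg-/- array 2, low in most of the 32 genes, was the highest here. The means were 4.40 ± 0.30 and 5.01 ± 0.07 (0.61, 95% interval 0.32 to 0.89, limma adjusted p = 0.0153). The call held in 15 of 17 alternative fits and was lost with the leukocyte covariate (limma adjusted p = 0.166) and without both marker extremes (0.101). With the mean of its 4 probe sets the difference was 0.19, since the 3 fainter ones differed by -0.04, 0.12 and 0.07.

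Tapbp, the gene of tapasin, which holds class I molecules at the pump, was 6.61 ± 0.32 against 6.72 ± 0.21 (0.11, limma adjusted p = 0.683). B2m, the light chain of class I molecules, read 10.72, 10.76, 10.93 and 11.01 in WT and 11.06, 10.87, 11.07 and 10.99 in Cebpg-/- (0.14, limma adjusted p = 0.268). It kept the shared order, with WT arrays 1 and 2 lowest and Cebpg-/- array 2 lowest of its genotype. Over 20 listed genes of class I presentation, 17 were measured; 5 rose (29.4%, beside 8.62% of all genes) and 0 fell, with a median of 0.16. The count that rose was 3 with quantile normalization or with the mean of probe sets (17.6%, beside 6.22% and 7.14% of all genes). It was 1 with the replicate block (5.88%, beside 5.38%) and 0 with the leukocyte covariate (beside 1.44%). It was between 1 and 4 when single arrays were left out, with 1 without WT array 1 or Cebpg-/- array 1 (beside 4.29% and 4.45%). The intensity trend called 1 lower. Of the 5 that rose, besides Tap1, H2-D1 (0.39, limma adjusted p = 0.0237) and H2-K1 (0.32, limma adjusted p = 0.0470) are class I heavy chains whose close similarity leaves their probe sets uncertain. Nlrc5 (0.34, limma adjusted p = 0.0352) is the factor that drives class I genes, but its probe set read under the array median on all 8 arrays, at 1.63 to 2.25. The last was Tapbpl (0.30, limma adjusted p = 0.0363), a relative of tapasin.

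The wider set of interferon-stimulated genes leaned the same way. Of 67 further genes, 55 were measured, some of which are also in the class I list above. Of the 55, 6 rose (10.9%, near the 8.62% of all genes) and 0 fell, 45 had a positive difference, and the median was 0.17. H2-D1 and H2-K1, among the 6, are already counted in the class I list, so the lists are not separate. With quantile normalization or the mean of probe sets 3 rose (5.45%, beside 6.22% and 7.14% of all genes). With the replicate block 2 rose (3.64%, beside 5.38%) and with the leukocyte covariate 1 (1.82%, beside 1.44%). Leaving out single arrays gave 1 without WT array 1, or Cebpg-/- array 1 or 3 (1.82%, beside 4.29%, 4.45% and 5.03%). It gave up to 9, without Cebpg-/- array 2 (16.4%, beside 9.29%). Those that rose were Ifi30, a lysosomal thiol reductase of antigen processing (0.75, limma adjusted p = 0.00682), Ccl5, a chemokine for T cells and monocytes (1.66, limma adjusted p = 0.0234), H2-D1, Pml, the scaffold of nuclear bodies (0.28, limma adjusted p = 0.0464), H2-K1, and Eif2ak2 (0.41, limma adjusted p = 0.0486), the gene of the RNA-activated kinase PKR. Ccl5 read 4.10, 5.04, 5.08 and 5.27 in WT and 7.39, 5.33, 6.76 and 6.63 in Cebpg-/-, lowest on WT array 1 and highest on Cebpg-/- array 1, as the leukocyte markers were. Cxcl10, a chemokine often used as an interferon marker, was 3.46 ± 0.11 against 3.69 ± 0.26 (limma adjusted p = 0.239). The mean of the 55 genes lay between 4.56 and 4.96 on WT arrays, with arrays 1 and 2 again the lowest, and between 4.80 and 5.17 on Cebpg-/- arrays, where array 2 was the lowest.

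Upstream of these genes the interferons themselves were too dim to compare: of 10 interferon genes 6 had a probe set, and all 6 had group means under the median value of 2.73, between 1.17 and 2.64. At this signal the arrays do not tell whether interferon expression differed. The 6 had a median difference of -0.10 and 0 passed, and Ifnb1, the interferon that fibroblasts make first, was 2.03 ± 0.07 against 1.91 ± 0.08 (limma adjusted p = 0.245). Among 12 measured receptors, kinases and STATs, 1 rose (8.33%, beside 8.62% of all genes) and 1 fell (8.33%, beside 3.99%). Stat5a, which serves cytokine receptors, rose (0.39, limma adjusted p = 0.0274). Stat3, the factor of the interleukin-6 family, fell (-0.33, limma adjusted p = 0.0364). The count that fell was 0 with array medians subtracted, with the replicate block, with the leukocyte covariate and without any 1 of WT arrays 1, 3 and 4 and Cebpg-/- arrays 1, 3 and 4. The count that rose was 0 with that covariate and without WT array 1 or 2 or Cebpg-/- array 1 or 3. The receptor chains Ifnar1 (0.02, limma adjusted p = 0.860) and Ifnar2 (-0.14, limma adjusted p = 0.225) did not pass.

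Among 13 measured genes that lead to interferon production, 2 rose (15.4%, beside 8.62% of all genes). Tlr3, the endosomal receptor for double-stranded RNA, went from 2.48 ± 0.13 to 3.07 ± 0.25 (0.59, limma adjusted p = 0.0122). Tlr4, the receptor for lipopolysaccharide, went from 3.39 ± 0.04 to 3.70 ± 0.11 (0.30, limma adjusted p = 0.0167). In 5 of the 13 genes, Tlr3 and Tlr4 among them, all 4 Cebpg-/- arrays lay above all 4 WT arrays, beside 12.8% of all genes. Both calls were lost with the leukocyte covariate. The count was 4 with array medians subtracted (30.8%, beside 12% of all genes) and 1 without Cebpg-/- array 1 (7.69%, beside 4.45%). Of the 7 other IRF genes measured 0 passed, and Irf8, a factor of myeloid cells, was 2.62 ± 0.14 against 3.15 ± 0.47 (limma adjusted p = 0.108). Of 17 inhibitors 1 rose (5.88%, beside 8.62% of all genes), Nlrc5, which is also counted above. With dim probe sets left out 0 rose, and 0 without WT array 1 or 3 or Cebpg-/- array 1 or 3. The feedback inhibitors Socs1 (-0.20, limma adjusted p = 0.318) and Socs3 (0.33, limma adjusted p = 0.0778) did not pass.

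Genes with several probe sets gave a check on the readings. Besides the 32 probe sets used, 20 others named one of 13 of these genes alone. Of the 20, 17 had the same sign of difference. None of the 20 passed when adjusted over all probe sets, whereas the probe sets used for Ifit2, Ifit3 and Tap1 did. Ifit2 and Ifit3 had no other probe set of their own, so the check does not reach their calls. The other probe sets of Tap1 differed by -0.04, 0.12 and 0.07.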

How the data were processed

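The values are log2 expression estimates that the authors deposited for 8 Affymetrix arrays; the submitters' processing notes name RMA (background correction, quantile normalization and median polish), with version and settings not given in the sources used here. The table held no other value columns. Of 45037 probe sets that are not controls, 34945 name 1 gene, 932 several and 9160 none. Of the 34945, 34741 were matched by Entrez number to RefSeq (GRCm38.p6), from which their gene symbols were taken. Each gene took the brightest probe set naming it alone, by the mean of 8 arrays.

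The difference between genotypes was estimated for all probe sets in limma 3.58.1 under R 4.3.3, using lmFit and eBayes without trend; p-values were Benjamini-Hochberg adjusted over 18193 genes, and genes under 0.05 were called. The pipeline was tested on simulated data. Precision is limited by 4 arrays a group. All 34 genes, Cebpg, and up to 4 called genes of each further list were named, with a few pathway genes whatever their result. The members and lists were chosen with earlier results of these data known. Alternatives changed the normalization, filter, probe summary, variance model, array weights, a replicate block, a leukocyte covariate, and left out single arrays; leaving out both marker extremes was chosen after seeing the data.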

Additional observations from a re-analysis of the deposited data

Results flagged for a closer look

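In the Cebpg-/- group, array 2 stood far below the other 3 in Irf7 (3.36), Stat2 (2.39) and Parp14 (3.18), by Dixon's gap test. These were 3 of 66 groups of 4 arrays checked, and chance alone gives about 1 in 20. The array was also the lowest of its genotype in 27 of the 32 interferon-stimulated genes and in all 24 leukocyte and macrophage markers.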

How the results depend on the processing

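The count of genes called higher was 3; it was 5 with array medians subtracted (adding Gbp2 and Oas2), 1 with the leukocyte marker covariate and 1 without both marker extremes, a setting chosen after seeing the data. It ran from 2 to 6 when single arrays were left out, with 6 without Cebpg-/- replicate 2 (Ifit1, Ifit2, Ifit3, Igtp, Oas2 and Tap1). Quantile normalization, the intensity trend, array weights, the filter on dim probe sets (28 genes left) and the mean of probe sets gave 3 or 4, and no setting called a gene lower. The median difference moved from 0.30 to 0.0048 with the covariate, which itself differed between genotypes. Scaling shifted the balance over all genes, from 1569 higher and 726 lower to 2188 and 584 with array medians subtracted and 1131 and 864 with quantile normalization. Leaving out single arrays gave between 780 and 1690 higher and between 395 and 969 lower, with 780 (4.29%) without WT replicate 1 and 810 (4.45%) without Cebpg-/- replicate 1.

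With the covariate the sign turned in Oasl2 (-0.12), Irf7 (-0.12), Irf9 (-0.0060), Stat2 (-0.20), Rsad2 (-0.052), Ddx58 (-0.12), Iigp1 (-0.068), Tapbp (-0.17), Ifi27l2a (-0.15), Ifi35 (-0.032) and Parp14 (-0.10), and without both marker extremes in Stat2 (-0.023) and Tapbp (-0.042). Leaving out single arrays took Oasl1 from -0.11 to 0.0039, Stat2 from -0.046 to 0.20 and Irgm1 from -0.40 to 0.17; array weights gave Irgm1 0.0079. None of these passed the test under these settings, and the cause was not tested.

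The arrays share only replicate numbers: the correlations of same-numbered deviations were -0.36, 0.15, 0.02 and 0.05. With a replicate block 2 genes were called (Ifit2 and Tap1), Ifit3 had a limma adjusted p of 0.0510, and 978 genes were higher and 491 lower in all. With 4 arrays a group and a median WT SD of 0.323, differences near the median of the list are hard to separate from the spread.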
